A study of Mus musculus with 6 samples.

Results

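Efferocytosis is the engulfment of dying cells, and the genes described here are 10 efferocytosis receptors and bridging molecules. They are the receptors Mertk, Axl, Tyro3, Stab1, Timd4, Lrp1 and Cd300lb and the bridging molecules Gas6, Pros1 and Mfge8. They were chosen by symbol from the 32285 genes of the count matrices, and all 10 were found. Single-cell RNA sequencing (scRNA-seq) was performed on the injured rotator cuff enthesis, where tendon inserts into bone, at 7 days post injury (dpi) and repair. There were 3 libraries from wild-type controls (C57BL/6) and 3 from Nlrp3-/- mice, all aged 12 to 14 weeks. The knockout was global rather than limited to a cell type, and the entheses of several mice were pooled by the study without a stated number of animals per library. P-values therefore measure the spread between these libraries.

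When a cell dies it exposes phosphatidylserine on its surface, and phagocytes recognize this lipid directly or through soluble bridging proteins. GAS6 and protein S (Pros1) link phosphatidylserine to the receptor tyrosine kinases TYRO3, AXL and MERTK, and MFG-E8 links it to integrins. In healing tissue macrophages clear neutrophils by this route, and the clearance is known to accompany the turn from inflammation to repair.

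Nlrp3, the deleted gene, stood at 94.0, 163 and 136 CPM, the counts of a gene scaled to a fixed total of unique molecular identifiers (molecules) per library and cell type, in the wild-type libraries and at 0 molecules in every Nlrp3-/- library. The titles of all 3 knockout libraries name Nlrp3, whereas the genotype fields of replicates 2 and 3 read Nlrp4 and Nlrp5. Xist was detected at 2 to 10 molecules in the wild-type libraries and at 52182 to 87291 in the Nlrp3-/- libraries, and the Y-linked Ddx3y was at 0 in the latter, so genotype and sex cannot be told apart here. A total of 80295 cells passed the filters on depth, genes, mitochondrial share and doublets, of which 9658 in clusters mostly of 1 library, 9508 of them from Nlrp3-/- library 1, were set aside. The remaining 70637 cells were compared, 20568 of them macrophages, and a name such as macrophages stands for macrophage-like cells named from marker genes. Total molecules were 97042713 to 134901999 per library. Wild-type library 3 stood apart from the other wild-type libraries in macrophages, where its root-mean-square log2 difference from them was 0.398 and 0.414, against 0.249 between those libraries and 0.357 to 0.423 between it and the Nlrp3-/- libraries. In neutrophils it did not, at 0.450 and 0.532 against 0.455. In mesenchymal cells Nlrp3-/- library 2 lay furthest from its group, at 0.632 and 0.645 against 0.357. Counts of genotype calls are therefore given with and without wild-type library 3. Between 26 and 91 cell barcodes were shared by pairs of libraries, at most 0.607% of the smaller library.

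All 10 members are protein-coding genes, and their Ensembl IDs matched the GRCm38 annotation. To show the regulatory sequence of the genes that the cell type results turn on, the 250 bases before the RefSeq start site (GRCm38.p6) are printed 5′ to 3′ on the gene's strand. Capitals mark GAGGAA, the core bound by the macrophage factor PU.1, TGCTGA, found in MAF sites, and AGGTCA, the nuclear receptor half-site, on either strand. Mertk lies at chr2:128698665-128698914 (plus), Stab1 at chr14:31168642-31168891 (minus), Gas6 at chr8:13494536-13494785 (minus) and Timd4 at chr11:46810549-46810798 (plus).
Mertk: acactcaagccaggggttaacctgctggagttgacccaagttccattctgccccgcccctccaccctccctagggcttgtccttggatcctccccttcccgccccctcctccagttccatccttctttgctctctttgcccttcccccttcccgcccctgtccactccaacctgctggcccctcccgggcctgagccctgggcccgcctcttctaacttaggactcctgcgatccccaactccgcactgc
Stab1: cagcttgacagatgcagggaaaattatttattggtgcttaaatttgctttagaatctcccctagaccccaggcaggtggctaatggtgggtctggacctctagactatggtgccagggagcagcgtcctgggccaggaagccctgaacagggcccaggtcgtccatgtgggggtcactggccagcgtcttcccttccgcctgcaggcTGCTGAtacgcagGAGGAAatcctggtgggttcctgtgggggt
Gas6: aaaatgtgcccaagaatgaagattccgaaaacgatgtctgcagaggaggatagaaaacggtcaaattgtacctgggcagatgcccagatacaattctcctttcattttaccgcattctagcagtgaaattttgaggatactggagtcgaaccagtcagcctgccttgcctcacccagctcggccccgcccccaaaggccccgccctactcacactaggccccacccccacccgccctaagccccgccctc
Timd4: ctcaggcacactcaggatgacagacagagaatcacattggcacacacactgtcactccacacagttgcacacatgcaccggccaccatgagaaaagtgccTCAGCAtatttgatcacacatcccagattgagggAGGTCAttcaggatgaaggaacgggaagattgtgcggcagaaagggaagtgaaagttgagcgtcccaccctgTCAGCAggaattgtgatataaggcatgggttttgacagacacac
Stab1 held GAGGAA 30 bases and TGCTGA 43 bases before its start. Timd4 held TGCTGA 150 and 44 bases and AGGTCA 116 bases before its start, and none of the 3 motifs was found in the Mertk and Gas6 windows. Of 32851 promoter windows of this length, 23.3% held GAGGAA, 16.1% TGCTGA and 14% AGGTCA, so that a match is a description only. Among the other members, GAGGAA was found in Axl and Mfge8, TGCTGA in Cd300lb, and no motif in Pros1, Tyro3 and Lrp1.

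Each member had its own distribution over the injured enthesis (the dot map of levels by cell type). The clusters were made without these genes among the variable genes, so their levels between clusters were free to differ. In wild-type controls macrophages were compared with each of 4 other cell types in a fit across 14653 genes with library as a block. Against mesenchymal cells all 10 members passed an adjusted p of 0.05, 4 higher and 6 lower in macrophages, among them Timd4 with 2 molecules in mesenchymal cells and Tyro3 with 9 in macrophages, where 72.5% of all genes passed, 34.1% higher and 38.5% lower. Against neutrophils 7 members were higher and 1 lower, where 67.0% of genes passed, 35.8% higher and 31.2% lower. The counts were 6 higher and 2 lower against endothelial cells, the former including Timd4 with 0 molecules in endothelial cells and 54 in macrophages, where 61.6% of genes passed (31.4% and 30.1%), and 6 higher and 1 lower against conventional dendritic cells, where 27.5% passed (15% and 12.5%). Mertk, with 5 molecules in neutrophils and 1 in dendritic cells, is counted as higher in both. A member near 0 in a type entered the fit through the other types, so its call is no separate result. Fitted differences use TMM scaling and need not equal ratios of CPM.

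**Figure D1:**
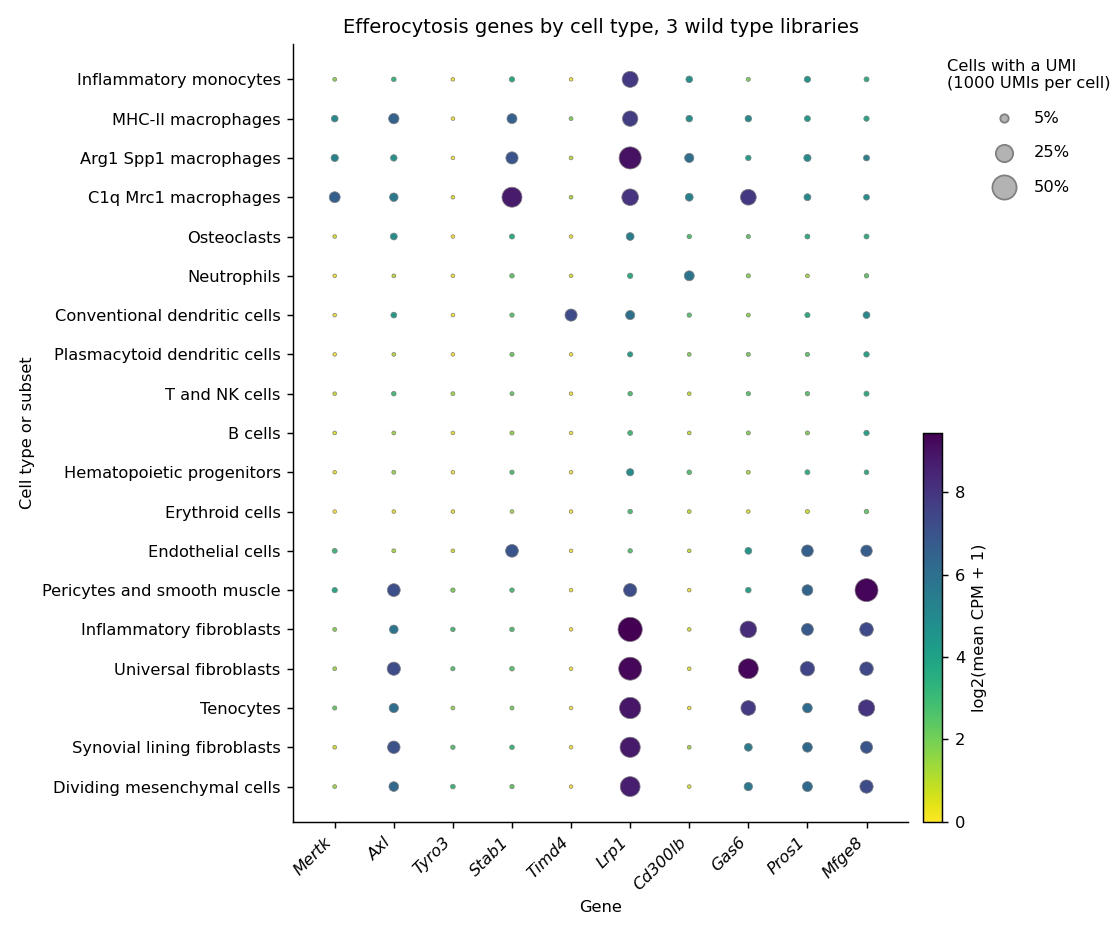
Levels of the 10 members in 19 cell types and subsets of the wild-type libraries. Colour gives log2(mean CPM + 1) and dot size the expected share of cells with at least 1 molecule when every cell is thinned to 1000 molecules; Timd4 is seen in conventional dendritic cells, Mertk and Stab1 in C1q Mrc1 macrophages, and Gas6 in universal fibroblasts and C1q Mrc1 macrophages.

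Mertk, the receptor tyrosine kinase that macrophages use to bind GAS6 and protein S on dying cells, was mostly a macrophage gene. Macrophages held 76.4% to 83.6% of all Mertk molecules of the compared cells in the wild-type libraries while making up 28.8% of the cells on average. Its level in macrophages was 27.5, 27.5 and 31.0 CPM in wild-type libraries 1 to 3 and 39.4, 25.5 and 38 CPM in Nlrp3-/- libraries 1 to 3, and the groups overlapped. Endothelial cells stood at 5.29 to 8.63 CPM and mesenchymal cells at 2.40 to 4.16 CPM in wild-type controls, below every macrophage value. The fitted difference was 3.40 ± 0.20 (log2 ± SE) over mesenchymal cells (adjusted p = 6.05e-10) and 2.32 ± 0.22 over endothelial cells (adjusted p = 2.03e-07).

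Within macrophages Mertk was highest in the C1q Mrc1 subset, the resident-type macrophages named from complement C1q and the mannose receptor. There it stood at 86.2, 81.1 and 114 CPM in wild-type controls (93.9 ± 17.9, SD, n = 3), against 28.8 to 48.2 CPM in Arg1 Spp1 macrophages and 24.3 to 34.2 CPM in MHC-II macrophages. Inflammatory monocytes held 1.90 to 2.18 CPM and osteoclasts 0 to 0.713 CPM. No other subset reached the lowest value of the C1q Mrc1 macrophages. The C1q Mrc1 subset held only 31.6% to 34.3% of the Mertk molecules of wild-type macrophages. Macrophages outside it stood at 20.9 to 22.5 CPM. The C1q Mrc1 subset was 2.32-fold above Arg1 Spp1 macrophages (adjusted p = 4.96e-07) and 3.08-fold above MHC-II macrophages (adjusted p = 2.2e-09). Mertk molecules over the 3 libraries numbered 24 in inflammatory monocytes and 5 in osteoclasts, against 586 in the C1q Mrc1 subset. In monocytes and osteoclasts Mertk was too low for a test between genotypes and entered the subset fit through the other subsets.

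Across the macrophage subsets the members did not share a single order. In a fit of 5 subsets over 10442 genes, 8 members could be tested, Tyro3 and Timd4 being too low. Of these, 4 were higher and 2 lower in C1q Mrc1 than in Arg1 Spp1 macrophages, where 28.3% of genes passed, 13.4% higher and 14.9% lower. Against inflammatory monocytes 6 were higher and none lower, where 52.2% passed (25.8% and 26.4%). The 6 include Mertk with 24 and Gas6 with 31 monocyte molecules, which entered the fit through other subsets, so their calls are no separate result. Against MHC-II macrophages 5 were higher and 1 lower, where 30.3% passed (14.5% and 15.8%). All 8, Mertk with its 5 osteoclast molecules included, were higher than in osteoclasts, where 63.8% of genes passed, 32.2% higher and 31.6% lower.

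**Figure D2:**
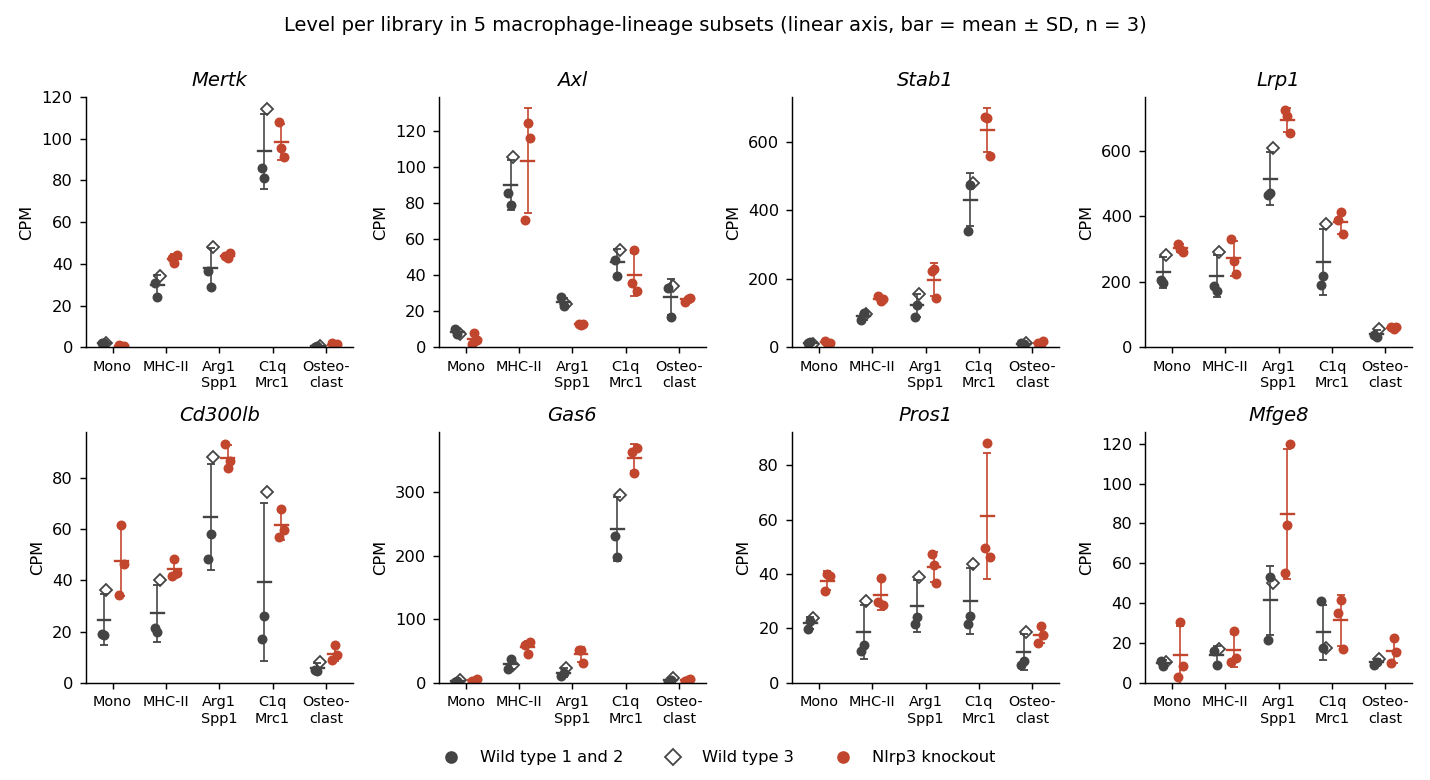
CPM of 8 members in 5 macrophage subsets, 1 point per library, with the mean and SD of each genotype; wild-type library 3 is the open diamond. Mertk, Stab1 and Gas6 were highest in C1q Mrc1 macrophages, Axl in MHC-II macrophages, and Lrp1 and Cd300lb in Arg1 Spp1 macrophages.

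Stab1, the scavenger receptor stabilin-1 that binds phosphatidylserine, was shared between macrophages and endothelium. Macrophages stood at 101, 140 and 139 CPM in wild-type libraries and endothelial cells at 106, 105 and 160 CPM, and these ranges overlapped. The fitted difference between the types was 0.35 ± 0.21 (adjusted p = 0.152), while macrophages were 28.4-fold above mesenchymal cells (adjusted p = 8.94e-11). In the C1q Mrc1 subset Stab1 reached 341, 474 and 480 CPM in wild-type controls. Inflammatory monocytes held 9.03 to 15.2 CPM, and the subset was 31.9-fold above them (adjusted p = 1.66e-15). It was 3.30-fold above Arg1 Spp1 macrophages (adjusted p = 3.94e-09) and 4.56-fold above MHC-II macrophages (adjusted p = 8.62e-11).

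Axl, the receptor tyrosine kinase that prefers GAS6, had a different place from Mertk. Its level was 70.6, 83.6 and 61.1 CPM in mesenchymal cells and 39.8, 31.5 and 35.5 CPM in macrophages of wild-type libraries, with no overlap. It was highest in universal fibroblasts (160, 187 and 111 CPM), pericytes and smooth muscle cells (159, 134 and 138 CPM) and synovial lining fibroblasts (121, 139 and 140 CPM), whose ranges overlapped. Within macrophages it was the MHC-II subset that carried it, at 85.6, 79.1 and 105 CPM, against 47.2 ± 7.24 CPM (SD, n = 3) in C1q Mrc1 macrophages. The latter were 1.95-fold lower (adjusted p = 8.53e-06). Inflammatory monocytes held 7.47 to 10.2 CPM, and endothelial cells 1.39 to 1.45 CPM.

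Tyro3, the remaining kinase of this family, was a mesenchymal transcript at low level. It stood at 7.39, 7.18 and 3.98 CPM in mesenchymal cells of wild-type libraries, which held 90.4% to 94.6% of its molecules, and at 7.81, 3.84 and 6.12 CPM in Nlrp3-/- libraries. The groups overlapped. In macrophages 9 molecules were counted over the 3 wild-type libraries, and the level was 0 to 0.266 CPM. Mesenchymal cells of these libraries held 542 molecules.

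Timd4, the phosphatidylserine receptor TIM-4 of many resident macrophages, was found in conventional dendritic cells. They stood at 155, 84.5 and 223 CPM in wild-type libraries and 137, 200 and 222 CPM in Nlrp3-/- libraries, and the groups overlapped. Macrophages held 1.39, 0.722 and 0.372 CPM in wild-type libraries. Dendritic cells made up 2.13% of the cells of wild-type libraries on average and held 85.4% to 96.3% of their Timd4 molecules. The fitted difference was 7.49 ± 0.38 on the log2 scale, 180-fold (adjusted p = 1.45e-08). In the C1q Mrc1 subset, where other resident-type genes were high, 8 molecules of Timd4 were counted over the 3 wild-type libraries, while Nlrp3-/- library 2 held 28 (18.8 CPM). In wild-type dendritic cells 21.4% to 37.6% of the cells had a Timd4 molecule at median depths of 5317 to 7000 molecules per cell. When thinned to 1000 molecules per cell the share was 7.43% to 16.2%, against 0.00688% to 0.0320% of neutrophils thinned in the same way. Unthinned neutrophils stood at 0.0219% to 0.0623%, at median depths of 1369 to 2744 molecules per cell.

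The dendritic clusters differed in Timd4. In the cluster with the most Ccr7, the receptor of migrating dendritic cells, wild-type libraries stood at 250, 109 and 531 CPM and Nlrp3-/- libraries at 293, 203 and 372 CPM. The largest cluster, which held Cd209a with some Ccr7, stood at 214, 102 and 290 CPM and at 188, 342 and 266 CPM. The Xcr1 cluster, of the cross-presenting type, was lower, at 117, 58.0 and 87.6 CPM and at 50.2, 65.9 and 67.2 CPM. The cluster with the most Cd209a held 4.64 to 48.8 CPM in wild-type and 0 to 18.8 CPM in Nlrp3-/- libraries. The Cd209a-rich cluster was below the Ccr7-rich cluster in each of the 6 libraries. The Ccr7-rich cluster held only 15 to 65 cells per library, so its values rest on few cells.

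Lrp1, the large endocytic receptor that takes up calreticulin-marked cells, was present in both compartments. Its level was 497, 527 and 534 CPM in mesenchymal cells and 230, 227 and 328 CPM in macrophages of wild-type libraries, with no overlap. Mesenchymal cells were 1.84-fold higher (adjusted p = 0.000776). Arg1 Spp1 macrophages reached 464, 472 and 609 CPM, 2.20-fold above C1q Mrc1 macrophages (adjusted p = 1.28e-08), and osteoclasts held 31.4 to 55.2 CPM. C1q Mrc1 macrophages and inflammatory monocytes differed by 0.04 ± 0.10 on the log2 scale (adjusted p = 0.745), and by -0.08 without wild-type library 3. At Leiden resolution 2.0, a finer clustering, the direction turned and passed the threshold, with C1q Mrc1 macrophages lower (-0.27 ± 0.09, adjusted p = 0.021).

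Cd300lb, an activating receptor of the CD300 family that recognizes phosphatidylserine, was the only member lower in macrophages than in neutrophils. Neutrophils stood at 44.9, 44.3 and 80.7 CPM and macrophages at 20.5, 22.1 and 39.1 CPM in wild-type libraries, and within each library neutrophils were higher. The fitted difference was 3.73-fold (adjusted p = 2.75e-08). Among macrophage subsets the Arg1 Spp1 cells were highest, at 48.3, 58.2 and 88.1 CPM, 1.96-fold above C1q Mrc1 macrophages (adjusted p = 0.00022). In both types wild-type library 3 was the highest of its group. Mesenchymal cells held 0.310 to 0.741 CPM.

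Gas6 and Pros1, ligands of the kinase family of TYRO3, AXL and MERTK, were mostly made by mesenchymal cells. For Gas6 the level was 223, 228 and 318 CPM in mesenchymal cells of wild-type libraries, which held 83.8% to 90.5% of its molecules. Universal fibroblasts, the progenitor-type fibroblasts, stood at 405, 402 and 1062 CPM. The last value came from 35 cells. Inflammatory fibroblasts held 335, 304 and 296 CPM of Gas6. Macrophages as a whole were 5.62-fold below mesenchymal cells (adjusted p = 4.99e-10).

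The exception among macrophages was the C1q Mrc1 subset, whose Gas6 level of 231, 198 and 297 CPM overlapped that of all mesenchymal cells. This subset made up 8.70% to 10.4% of wild-type macrophages and held 52.1% to 65.6% of their Gas6 molecules. It stood 14.5-fold above Arg1 Spp1 macrophages (adjusted p = 3.19e-11) and 7.91-fold above MHC-II macrophages (adjusted p = 4.56e-11). Inflammatory monocytes held 31 Gas6 molecules over the 3 wild-type libraries, against 1498 in this subset. In monocytes Gas6 was too low for a test between genotypes and entered the subset fit through the other subsets. The receptor Mertk and its ligand Gas6 were thus highest in the same subset of the 5 named ones, and 6822 of the 20568 macrophages were in none of these. The summed markers of mesenchymal cells in C1q Mrc1 macrophages were 340 to 678 CPM in wild-type controls, against at least 46010 CPM in mesenchymal cells. In all macrophages a share of mesenchymal RNA set by these markers would carry 1.36 to 2.61 CPM of Gas6, where 35.5 to 48.1 CPM were measured.

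Pros1 had endothelial cells as a further source. It stood at 78.7, 76.3 and 137 CPM in endothelial cells and 88.3, 92.4 and 98.7 CPM in mesenchymal cells of wild-type libraries, with overlap. Macrophages held 14.4, 15.8 and 27.1 CPM, 4.06-fold below endothelial cells (adjusted p = 5.19e-07) and 4.65-fold below mesenchymal cells (adjusted p = 1.01e-07). Unlike Gas6, Pros1 differed little between C1q Mrc1 and Arg1 Spp1 macrophages, by -0.04 ± 0.20 on the log2 scale (adjusted p = 0.918), although the same contrast in Nlrp3-/- libraries was 0.32.

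Mfge8, the bridge to integrins, was highest in chondrocytes and in pericytes and smooth muscle cells. Pericytes and smooth muscle cells stood at 732, 716 and 427 CPM in wild-type and 447, 539 and 664 CPM in Nlrp3-/- libraries. Mesenchymal cells varied widely, at 591, 171 and 324 CPM and at 199, 1403 and 195 CPM. The highest library, Nlrp3-/- library 2, held 532 chondrocytes and the next, wild-type library 1, held 90, whereas Nlrp3-/- library 1 held 125 and was low. Chondrocytes made up 0.125% to 7.63% of wild-type and 0.259% to 27.5% of Nlrp3-/- mesenchymal cells and held 1.12% to 75.8% and 3.17% to 91.6% of the Mfge8 molecules. Without them mesenchymal cells stood at 162 to 187 CPM in wild-type and 174 to 201 CPM in Nlrp3-/- libraries. Wild-type chondrocytes stood at 3840 CPM in library 1 (90 cells) and 2783 CPM in library 3 (62 cells), and those of Nlrp3-/- library 1 at 1013 CPM (125 cells). This low value does not stand for the knockout group. In Nlrp3-/- library 2 the 532 chondrocytes held 43108 Mfge8 molecules, against 565 in Nlrp3-/- library 1. Wild-type libraries 1 and 3 held 9156 and 4162. Macrophages were at 15.2 to 17.8 CPM, and in endothelial cells Mfge8 stood at 84.5 to 111 CPM.

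**Figure D3:**
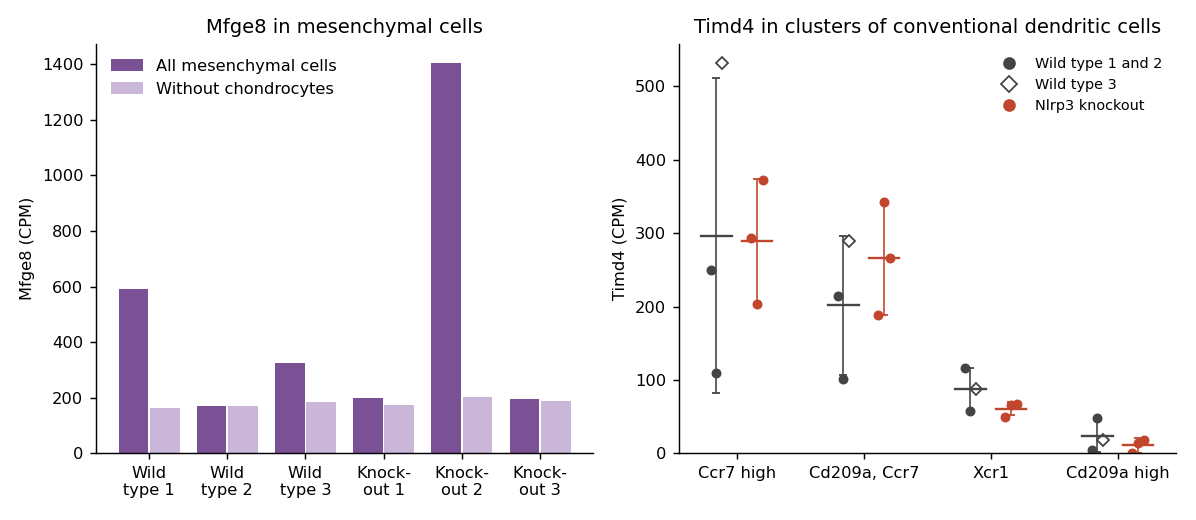
Mfge8 in mesenchymal cells with and without chondrocytes (CPM, bars per library) and Timd4 in 4 clusters of conventional dendritic cells (CPM, points per library). The spread of Mfge8 between libraries narrows to 162 to 201 CPM without chondrocytes, and Timd4 is lowest in the cluster with the most Cd209a.

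The 3 Nlrp3-/- libraries were next compared with the 3 wild-type libraries within each cell type. Genotype and sex cannot be told apart in any of these comparisons, so a genotype difference or effect here stands for both. No member passed an adjusted p of 0.05 by edgeR's quasi-likelihood test in any of 5 cell types and 5 macrophage subsets. In macrophages 9 members were tested and none was called, where 0.428% of 12850 genes were called. Unadjusted p was under 0.05 for 5 of the 9, against 20% of all genes, and DESeq2 called 2, Gas6 and Pros1. Run on the same filtered genes, DESeq2 called more of them than edgeR in every comparison. Its gene counts are given with the results under alternative processing, and the edgeR shares are no background for its calls. After leaving out wild-type library 3 the edgeR test called 3 of the 9 members, Gas6, Pros1 and Cd300lb, all higher in Nlrp3-/- mice, where 20% of all genes were called. Over all these comparisons, leaving out wild-type library 3 gained 25 member calls, and leaving out Nlrp3-/- library 3 gained 1. The calls given below without wild-type library 3 thus depend on which library is left out.

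In macrophages the 5 members with the smallest p, Gas6, Pros1, Stab1, Cd300lb and Mfge8, were higher in every Nlrp3-/- library than in any wild-type library. The same held for 21.2% of all genes. Gas6 stood at 35.5, 41.2 and 48.1 CPM in wild-type and 77.9, 58.1 and 97.3 CPM in Nlrp3-/- macrophages, a difference of 0.76 ± 0.19 (log2 ± SE, adjusted p = 0.135). It was 0.82 ± 0.22 without wild-type library 3 (adjusted p = 0.0414). Pros1 stood at 14.4, 15.8 and 27.1 CPM against 31.3, 40.0 and 31.0 CPM, a difference of 0.69 ± 0.20 (adjusted p = 0.152). Wild-type library 3 lay nearest to the knockout values, so that leaving it out widened the difference, to 0.95 ± 0.12 (adjusted p = 0.00592).

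Cd300lb in macrophages was 20.5, 22.1 and 39.1 CPM in wild-type and 41.5, 50.3 and 46.6 CPM in Nlrp3-/- libraries. The difference was 0.62 ± 0.20 (adjusted p = 0.168), and 0.90 ± 0.09 without wild-type library 3 (adjusted p = 0.00354), which again lay nearest to the knockout values. Stab1 was 101, 140 and 139 CPM against 219, 176 and 205 CPM, a difference of 0.51 ± 0.16 (adjusted p = 0.159). Mfge8 was 17.8, 15.2 and 15.7 CPM against 19.6, 33.5 and 25.7 CPM (0.52 ± 0.18, adjusted p = 0.183). The summed mesenchymal markers in macrophages were 281 to 575 CPM in wild-type and 505 to 1150 CPM in Nlrp3-/- libraries. A share of mesenchymal RNA set by these markers would carry in wild-type and Nlrp3-/- libraries 1.78 to 3.62 and 1.34 to 12.6 CPM of Mfge8 and 1.36 to 2.61 and 1.75 to 5.25 CPM of Gas6. The other receptors overlapped between genotypes in macrophages. Mertk differed by 0.11 ± 0.18 (adjusted p = 0.752), Axl by -0.26 ± 0.17 (adjusted p = 0.386) and Lrp1 by 0.27 ± 0.16 (adjusted p = 0.347). The median of the 9 members was 0.52, against 0.01 over all genes tested. Members were chosen with earlier results of these data known, so this median is a description only.

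**Figure D4:**
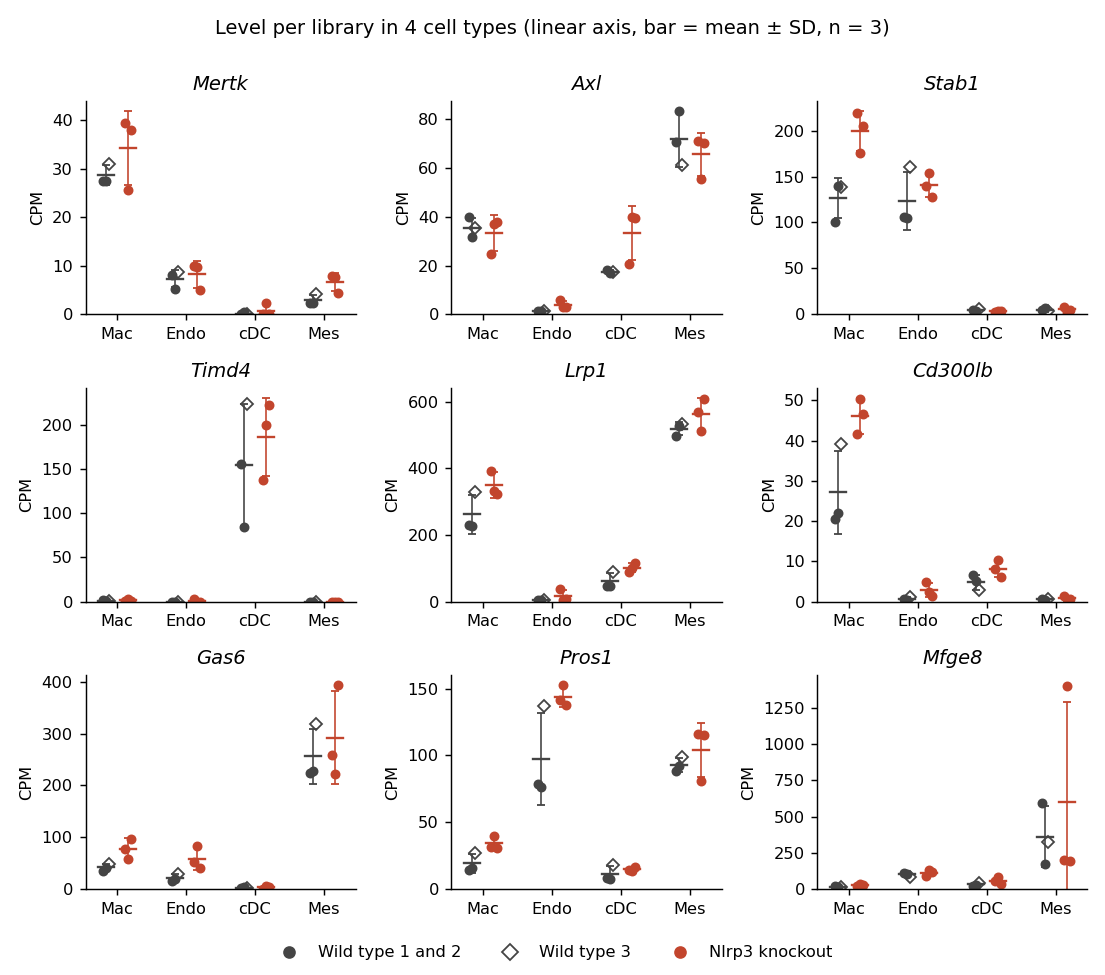
CPM of 9 members in macrophages (Mac), endothelial cells (Endo), conventional dendritic cells (cDC) and mesenchymal cells (Mes), 1 point per library with the mean and SD of each genotype; the open diamond is wild-type library 3. In macrophages the Gas6 values are 35.5 to 48.1 CPM in wild-type and 58.1 to 97.3 CPM in Nlrp3-/- libraries.

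The share of C1q Mrc1 cells among macrophages was 8.70% to 10.4% in wild-type and 10.0% to 20.7% in Nlrp3-/- libraries. Values with and without this subset are therefore given for Gas6. In macrophages outside it Gas6 stood at 13.6 to 22.6 CPM in wild-type and 29.3 to 31.9 CPM in Nlrp3-/- libraries. Within it Gas6 stood at 231, 198 and 297 CPM in wild-type and 364, 330 and 371 CPM in Nlrp3-/- libraries. Both comparisons were without overlap. The difference within the subset was 0.45 ± 0.16 (adjusted p = 0.189), and 0.56 ± 0.13 without wild-type library 3 (adjusted p = 0.0175).

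Within the C1q Mrc1 subset none of 8 members was called, where 0.398% of genes were called, 4 had an unadjusted p under 0.05 against 16.6% of all genes, and DESeq2 called none. Stab1 was 341, 474 and 480 CPM in wild-type and 673, 670 and 561 CPM in Nlrp3-/- libraries, without overlap (0.44 ± 0.16, adjusted p = 0.204). Pros1 was 21.8, 24.5 and 43.9 CPM against 49.7, 88.1 and 46.2 CPM, also without overlap (0.91 ± 0.27, adjusted p = 0.141). Such separation upward was seen for 14.2% of all genes. The summed macrophage markers of this subset were separated too, at 28770 to 34250 CPM in wild-type and 34890 to 41100 CPM in Nlrp3-/- libraries, and their part in these differences was not tested. Mertk, at 86.2, 81.1 and 114 CPM against 108, 95.5 and 91.3 CPM, overlapped and differed by -0.04 ± 0.15 (adjusted p = 0.929). Without wild-type library 3 the calls were 4, Gas6, Pros1, Lrp1 and Cd300lb, all higher in Nlrp3-/- mice, where 14.2% of genes were called. Pros1 then differed by 1.15 ± 0.25 (adjusted p = 0.0118).

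Of the subsets where each was tested, the Arg1 Spp1 macrophages gave the largest fitted genotype differences for Gas6 and Axl, in opposite directions. Gas6 stood at 9.98, 15 and 23.3 CPM in wild-type and 51.9, 51.3 and 31.0 CPM in Nlrp3-/- libraries, a difference of 1.42 ± 0.29 (adjusted p = 0.0575). Axl stood at 27.8, 23.0 and 24.1 CPM in wild-type and 12.8, 12.4 and 13.1 CPM in Nlrp3-/- libraries, a difference of -1.03 ± 0.21 (adjusted p = 0.0578). Mfge8 stood at 21.5, 52.9 and 49.9 CPM against 55.1, 79.2 and 120 CPM (1.02 ± 0.30, adjusted p = 0.133), and Lrp1 stood at 464, 472 and 609 CPM against 723, 705 and 653 CPM (0.36 ± 0.15, adjusted p = 0.255). Without overlap, Gas6, Mfge8 and Lrp1 lay higher and Axl lower in Nlrp3-/- libraries, 3 members against 1. Such separation was seen upward for 12.9% and downward for 6.86% of all genes. The counts behind Axl were small, 29 to 53 molecules per wild-type and 16 to 42 per Nlrp3-/- library. None of 8 members was called here, where 0.404% of genes were called, 7 had an unadjusted p under 0.05 against 16.2% of all genes, and DESeq2 called none. Without wild-type library 3 the calls were 7, all tested members but Mertk, where 11.6% of genes were called. Axl was then at -1.08 ± 0.23 (adjusted p = 0.00816) and Gas6 at 1.68 ± 0.29 (adjusted p = 0.00273). The lead of this subset for Axl was narrow. With all 6 libraries Axl differed by -0.95 ± 0.39 in inflammatory monocytes (edgeR adjusted p = 0.313). It differed by -0.39 ± 0.20 in C1q Mrc1, 0.09 ± 0.19 in MHC-II macrophages and -0.21 ± 0.22 in osteoclasts. Leaving out a library gave -1.64 to -0.66 in monocytes, against -1.10 to -0.92 in Arg1 Spp1 macrophages.

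In the other subsets none of the tested members was called. In MHC-II macrophages (8 tested) 5 had an unadjusted p under 0.05 against 17.3% of all genes, 0.563% of genes were called, and DESeq2 called Gas6 alone. There 4 members lay higher without overlap, Gas6, Mertk, Stab1 and Cd300lb, as did 16.5% of all genes. Gas6 stood at 21.9, 37.2 and 27.2 CPM in wild-type and 60.2, 44.9 and 63.9 CPM in Nlrp3-/- libraries (0.83 ± 0.21, adjusted p = 0.116). Mertk stood at 24.3 to 34.2 CPM against 40.4 to 44.4 CPM (0.40 ± 0.16, edgeR adjusted p = 0.236). In inflammatory monocytes (6 tested) the count at an unadjusted p under 0.05 was 3 against 14.3%, 2 higher and 1, Axl, lower (-0.95 ± 0.39). There 0.429% of genes were called and none of the members by DESeq2, and 2 members lay higher without overlap, against 14.7% of genes. In osteoclasts (7 tested) the count was 2, both higher, against 18.3%. There 0.625% of genes were called and none of the members by DESeq2, and 2 lay higher without overlap, against 18.8%. Without wild-type library 3 the calls were 3 in MHC-II macrophages (Pros1, Stab1, Cd300lb), 2 in monocytes (Pros1, Cd300lb) and 3 in osteoclasts (Pros1, Lrp1, Cd300lb), all higher in Nlrp3-/- mice. All genes were then called at 13%, 10.5% and 18.4%.

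**Figure D5:**
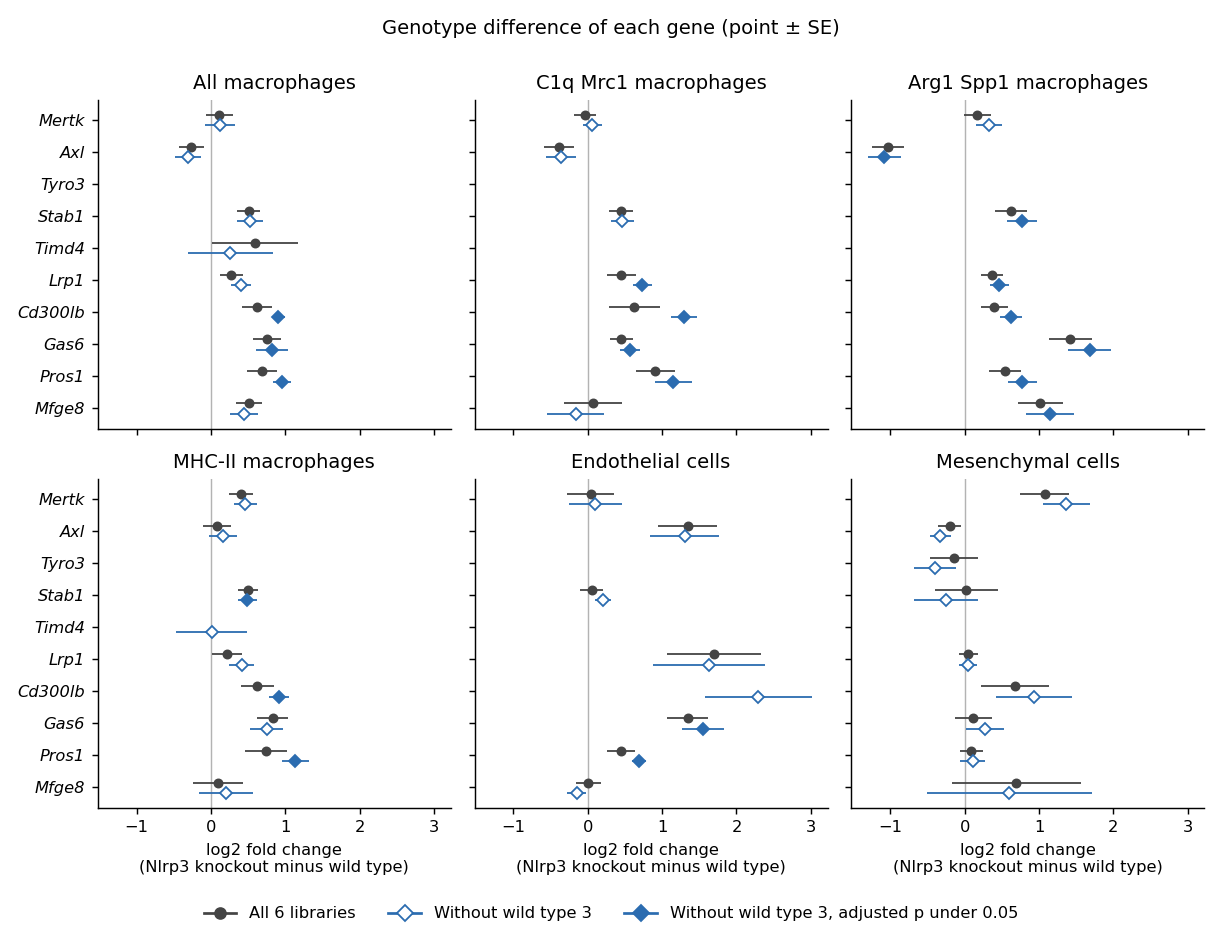
Difference of each member between Nlrp3-/- and wild-type libraries (log2 ± SE) by cell type and subset. Circles give all 6 libraries and diamonds leave out wild-type library 3. Filled diamonds have an adjusted p under 0.05 by edgeR, and open diamonds do not. Circles are solid whatever their p, and none of the differences they show passed an adjusted p of 0.05.

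Outside macrophages the endothelial cells stood out by Gas6. It was 14.7, 19.1 and 29.5 CPM in wild-type and 52.2, 82.4 and 40.5 CPM in Nlrp3-/- libraries, without overlap (1.35 ± 0.28, adjusted p = 0.0954), as were 17.6% of all genes in this direction. The difference was 1.55 ± 0.28 without wild-type library 3 (adjusted p = 0.0128), and Pros1 was also called, at 0.69 ± 0.10 (adjusted p = 0.00825), where 18.6% of genes were called. Summed mesenchymal markers in endothelial cells were 196 to 392 CPM in wild-type and 525 to 1040 CPM in Nlrp3-/- libraries, which in proportion would carry 0.952 to 1.63 and 1.52 to 4.14 CPM of Gas6. None of 7 members was called by edgeR, where 0.280% of genes were called, 4 had an unadjusted p under 0.05 against 20.1% of all genes, and DESeq2 called 2, Gas6 and Lrp1. Both shares are edgeR's and are no background for the DESeq2 calls. The 4 include Axl, which had 21 molecules over the wild-type libraries and passed the low-count filter through the Nlrp3-/- libraries alone. Lrp1 rested on Nlrp3-/- library 1, at 37.3 CPM against 6.19 and 8.28 CPM in the others and 4.14 to 5.71 CPM in wild-type controls. In its endothelial cells macrophage markers summed to 1551 CPM, against 432 and 440 CPM in the other Nlrp3-/- libraries and 227 to 313 CPM in wild-type controls, and in proportion would carry up to 28.3 CPM of Lrp1. The difference was 1.70 ± 0.63 with it and 0.41 without it.

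In conventional dendritic cells none of 5 members was called, where 1.43% of genes were called, 3 had an unadjusted p under 0.05 against 21.2% of all genes, and DESeq2 called none. Lrp1 was 47.5, 47.3 and 90.4 CPM in wild-type and 88.6, 101 and 117 CPM in Nlrp3-/- libraries, overlapping by wild-type library 3 (0.60 ± 0.21, adjusted p = 0.131). Without that library it was the only call, at 0.86 ± 0.17 (adjusted p = 0.00545), where 14.3% of genes were called. Macrophage markers in these cells summed to 3411 to 3593 CPM in wild-type and 3454 to 3655 CPM in Nlrp3-/- libraries. In proportion they would carry 39.8 to 57.5 CPM of Lrp1 in wild-type and 46.7 to 63.1 CPM in Nlrp3-/- libraries. The same proportion exceeded the measured level of other members in wild-type dendritic cells. It gave 4.76 to 5.45 CPM of Mertk where 0 to 0.423 CPM were measured. For Gas6 it gave 6.14 to 8.45 CPM where 0.961 to 2.96 CPM were measured. The proportion can thus overstate carried RNA in these cells, and the part of such RNA in the Lrp1 level was not tested. Axl was 18.0, 16.9 and 17.3 CPM against 20.7, 40.1 and 39.6 CPM (0.75 ± 0.26, adjusted p = 0.126), without overlap as for 21.3% of all genes in this direction. At Leiden resolution 2.0, a finer clustering, the Axl difference was -0.078. Timd4 differed by 0.12 ± 0.26 (adjusted p = 0.821).

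In mesenchymal cells the bridging molecules did not differ beyond the spread. Different clusters made up this class. Tenocytes numbered 27, 119 and 503 in wild-type and 514, 593 and 720 in Nlrp3-/- libraries, and inflammatory fibroblasts 468, 1078 and 242 against 166, 80 and 448, and the part of this in the values was not tested. Gas6 was 223, 228 and 318 CPM in wild-type and 259, 223 and 393 CPM in Nlrp3-/- libraries (0.12 ± 0.25, adjusted p = 0.834), and Pros1 differed by 0.09 ± 0.16 (adjusted p = 0.796). Mertk, at 2.40, 2.43 and 4.16 CPM against 7.81, 7.72 and 4.41 CPM, did not overlap between genotypes, as did 14.3% of all genes in this direction. Barcodes with at most 100 molecules, the ambient background, held Mertk at 4.80, 7.47 and 6.96 CPM in wild-type libraries. In Nlrp3-/- libraries they held 13.9, 6.01 and 11.4 CPM, and the part of this background was not tested. Mertk was the only one of 9 members with an unadjusted p under 0.05, where 12.6% of all genes had one (1.08 ± 0.33, adjusted p = 0.362). None was called, where 0.115% of genes were called, nor by DESeq2, nor without wild-type library 3, where 3.81% of genes were called. In neutrophils none of 7 members was called or had an unadjusted p under 0.05, where 0.349% of genes were called and 14.1% had one, and DESeq2 called none, nor did edgeR without wild-type library 3, where 0.197% of genes were called. Cd300lb there was 44.9, 44.3 and 80.7 CPM in wild-type and 49.3, 69.7 and 58.2 CPM in Nlrp3-/- libraries, with overlap, and no member was separated upward, against 18.0% of genes.

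Whether the genotype effect differed between macrophages and mesenchymal cells was tested directly. None of the 10 members was called, as was none of the 15337 genes (0.0%), by edgeR, while 3 members and 9.53% of all genes had an unadjusted p under 0.05, and DESeq2 was not run on this test. For Gas6 the effect in macrophages exceeded that in mesenchymal cells by 0.61 ± 0.16 (adjusted p = 0.321). The values were 0.63 ± 0.25 for Pros1 (adjusted p = 0.489) and -1.0 ± 0.39 for Mertk (adjusted p = 0.475).

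A list of 89 other efferocytosis genes was examined beside the members. It too was chosen with earlier results of these data known, so its counts and medians are a description only. In wild-type controls 58 of 85 tested were higher and 11 lower in macrophages than in mesenchymal cells, against 34.1% higher and 38.5% lower of all genes, with a median of 1.32 on the log2 scale against -0.05 over all genes. Of 18 other recognition receptors tested 13 were higher and 3 lower, and of 22 genes of corpse digestion and cholesterol handling 16 were higher and 1 lower. Trem2, a lipid receptor of macrophages, was higher by 7.11 ± 0.19 and Nr1h3, the oxysterol receptor LXR-alpha, by 4.59 ± 0.18. Both were singled out after their values were seen. Against neutrophils 40 of 85 were higher and 32 lower, where 35.8% of all genes were higher and 31.2% lower, with a median of 0.21 against 0.07 over all genes. Of 15 genes of the engulfment machinery 2 were higher and 8 lower in macrophages than in neutrophils.

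Within macrophages 33 of 79 list genes were higher and 25 lower in C1q Mrc1 macrophages than in inflammatory monocytes, against 25.8% and 26.4% of all genes. Corpse digestion and cholesterol genes counted 13 higher and 4 lower of 22, and the engulfment machinery none higher and 6 lower of 13. Among the former Nr1h3 was higher by 4.73 ± 0.19, the cholesterol exporter Abca1 by 3.36 ± 0.15 and the lysosomal lipase Lipa by 2.55 ± 0.12, all 3 named after their values were seen. Against Arg1 Spp1 macrophages the counts were 19 higher and 23 lower of 79, against 13.4% and 14.9% of all genes, with a median of 0.04. There the scavenger receptor Cd36, also named after its values were seen, was lower in C1q Mrc1 macrophages by 2.67 ± 0.17 on the log2 scale.

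Between genotypes none of the list genes was called by edgeR in any of the 10 comparisons. The shares of all genes given here and for the subsets are edgeR's and are no background for the DESeq2 calls. In macrophages 20 of 85 had an unadjusted p under 0.05, 9 higher and 11 lower in Nlrp3-/- mice, against 20% of all genes, DESeq2 called 7, and the median was 0.03. Leaving out wild-type library 3 gave 21 calls of 86, 12 of them higher, where 20% of all genes were called. In endothelial cells 18 of 80 had an unadjusted p under 0.05, all 18 higher, against 9.53% of all genes higher and 20.1% in either direction, with a median of 0.19 against 0.02 over all genes, and DESeq2 called 6. Leaving out wild-type library 3 gave 10 calls of 81, all higher, where 18.6% of all genes were called. Macrophage markers in endothelial cells were also higher in every Nlrp3-/- library (432 to 1551 CPM) than in wild-type controls (227 to 313 CPM), and of 85 list genes tested 55 were higher and 20 lower in macrophages than in endothelial cells of wild-type controls. Their part in the result was not tested.

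In Arg1 Spp1 macrophages 22 of 74 list genes had an unadjusted p under 0.05, 15 higher and 7 lower, against 16.2% of all genes, and DESeq2 called 3. Leaving out wild-type library 3 gave 20 calls of 76, 14 of them higher, where 11.6% of all genes were called. In MHC-II macrophages 20 of 77 had an unadjusted p under 0.05 against 17.3%, and without that library 16 of 79 were called, 12 of them higher, against 13%. The calls without it were 16 of 75 in C1q Mrc1 macrophages (9 higher, against 14.2%), 19 of 74 in osteoclasts (15 higher, against 18.4%) and 9 of 76 in inflammatory monocytes (6 higher, against 10.5%). Outside macrophages they were 12 of 68 in conventional dendritic cells (7 higher, against 14.3%), 3 of 85 in mesenchymal cells (all higher, against 3.81%) and none of 82 in neutrophils, against 0.197%, where with all libraries 15 of 80 had an unadjusted p under 0.05 and DESeq2 called 1.

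To place the members among all genes, the genes with the most similar level were found over 19 wild-type cell types and subsets by Pearson's r of mean log2(CPM + 1). These types share libraries, so r is a description only. Mertk was nearest to Lipa (r = 0.929), and Stab1 to Rab5c (r = 0.948) and Abcc3 (r = 0.932), the latter also near Mertk (r = 0.877). Gas6 was nearest to Tanc2 (r = 0.944) and to the growth factor Igf1 (r = 0.941). Timd4 was nearest to Ccl22, a chemokine of mature dendritic cells (r = 0.976), and Il12b (r = 0.958). Cd300lb was nearest to Clec4d (r = 0.979) and the integrin Itgam (r = 0.962). Axl (r = 0.931) and Lrp1 (r = 0.951) both had the integrin subunit Itgb5 among their nearest genes. Tyro3 was nearest to St6galnac5 (r = 0.953), Mfge8 to Kctd17 (r = 0.951) and Pros1 to Acvr1 (r = 0.957). Chondrocytes, where Mfge8 was high, were not among the 19 types, since wild-type library 2 held 3 of them. The genes nearest to Mfge8 were thus found without them.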

How the data were processed

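The deposited files were raw unique molecular identifier (UMI) counts per gene and barcode, made by the authors with Cell Ranger on mm10 (GRCm38) from 10x 3′ v3 libraries. The submitters' processing notes name Cell Ranger 2.1.1, whereas the matrix header names version 4. Cells were called against the ambient profile of barcodes with at most 100 UMIs (FDR 0.01, 10000 simulations), with at least 500 UMIs, 200 genes and at most 10% mitochondrial UMIs. Doublets were removed by Scrublet score at 0.8% per 1000 cells, because its automatic threshold marked 0 cells in 5 libraries. Cells were clustered (scanpy 1.11.5, Leiden resolution 1.0, 2000 variable genes without the members and the efferocytosis list, 30 components, 15 neighbours). Clusters were named from at least 3 detected markers, and the thresholds for naming, splitting and setting clusters aside were chosen after the clusters had been seen. A cluster was set aside where over 75% of its cells came from 1 library and had a median depth under that library's, or where over 95% came from 1 library at any depth.

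Counts were summed per library and type, where every library had at least 20 cells, and tested across all genes with edgeR 4.0.16 (quasi-likelihood, TMM, filterByExpr, R 4.3.3) with Benjamini-Hochberg adjusted p under 0.05. DESeq2 1.42.0 was an alternative. Genotype fits held the 3 wild-type and 3 Nlrp3-/- libraries of 1 type, and type and subset fits the wild-type libraries with library as a block. On simulated counts for macrophages (12679 genes) 55.7% of 2-fold and 93.8% of 4-fold changes were recovered, with 17 false calls. For conventional dendritic cells (7422 genes) 36.8% and 93.6% were recovered, with 13 false calls. No simulated library was made to stand apart as wild-type library 3 did. Members and lists were chosen with earlier results of these data known. The named genes were the members, list genes past the threshold between genotypes, and the 3 genes nearest to each member among those with at least 20 CPM in a type. No list gene passed between genotypes by edgeR with all 6 libraries, the setting this rule used. Trem2, Nr1h3, Abca1, Lipa and Cd36 were named outside this rule, after their values were seen. Promoters came from RefSeq GRCm38.p6.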

Additional observations from a re-analysis of the deposited data

Results flagged for a closer look

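The fitted genotype difference of Axl, the GAS6 receptor, lay in opposite directions in different cell types at Leiden resolution 1.0. The test of this was chosen after the values had been seen and did not pass the threshold. Every Nlrp3-/- library lay above every wild-type library in endothelial cells (2.93 to 5.82 against 1.39 to 1.45 CPM) and in conventional dendritic cells (20.7 to 40.1 against 16.9 to 18.0 CPM), and below in Arg1 Spp1 macrophages (12.4 to 13.1 against 23.0 to 27.8 CPM). Separation in the same direction was seen for 17.6% of all genes in endothelial cells, 21.3% in dendritic cells and 6.86% in Arg1 Spp1 macrophages. The fitted genotype effect in endothelial cells lay 2.27 (log2) above that in Arg1 Spp1 macrophages. This value is a description with no test, since Axl in endothelial cells rested on 21 molecules over the 3 wild-type libraries and passed the low-count filter there through the Nlrp3-/- libraries alone. The effect in conventional dendritic cells exceeded that in Arg1 Spp1 macrophages by 1.79 ± 0.31 (log2 ± SE), with an adjusted p of 0.0913 over 8962 genes by edgeR's quasi-likelihood test, which did not pass the threshold, and that test called none of these genes. In conventional dendritic cells alone the Axl difference was 0.75 at Leiden resolution 1.0 and -0.078 at 2.0. Macrophage markers in endothelial cells summed to 227 to 313 CPM in wild-type and 432 to 1551 CPM in Nlrp3-/- libraries, and mesenchymal markers to 196 to 392 and 525 to 1040 CPM. In proportion, macrophage RNA would carry 0.421 to 0.542 and 0.66 to 1.78 CPM of Axl, and mesenchymal RNA 0.247 to 0.598 and 0.378 to 0.986 CPM. Their part in the difference was not tested.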

How the results depend on the processing

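Over all 74 tested genotype differences of the members, 985 values under alternatives kept direction and side of the threshold, 44 passed it and 57 reversed. Of the 44, 25 came from leaving out wild-type library 3 and 1 from leaving out Nlrp3-/- library 3. A further 13 came from dropping the low-count filter and 5 from DESeq2. None of the reversed values passed the threshold. With a replicate block Mfge8 in mesenchymal cells was -0.022. With doublet removal at 1.6% Lrp1 in mesenchymal cells was -0.011, Stab1 in mesenchymal cells was -0.020, Mertk in endothelial cells was -0.33 and Axl in osteoclasts was 0.011. At Leiden resolution 2.0 Stab1 in mesenchymal cells was -0.066, Mertk in endothelial cells was -0.031, Axl in conventional dendritic cells was -0.078, Mertk in C1q Mrc1 macrophages was 0.025 and Axl in MHC-II macrophages was -0.037. With RLE size factors Mfge8 in endothelial cells was -0.0045. With DESeq2 Mfge8 in endothelial cells was -0.0047. With the clusters set aside kept Stab1 in endothelial cells was -0.0015.

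Leaving out each library in turn also turned directions. In macrophages Mertk ranged from -0.028 to 0.30. In neutrophils Axl ranged from -0.091 to 0.71, Mfge8 from -0.58 to 1.36, Lrp1 from -0.64 to 0.17, Cd300lb from -0.30 to 0.078 and Stab1 from -0.79 to 0.25. In mesenchymal cells Tyro3 ranged from -0.40 to 0.080, Mfge8 from -0.96 to 1.24, Gas6 from -0.15 to 0.28, Lrp1 from -0.0045 to 0.094 and Stab1 from -0.31 to 0.47. In endothelial cells Mertk ranged from -0.17 to 0.31, Mfge8 from -0.15 to 0.11 and Stab1 from -0.032 to 0.21. In conventional dendritic cells Timd4 ranged from -0.17 to 0.40. In C1q Mrc1 macrophages Mertk ranged from -0.12 to 0.061 and Mfge8 from -0.16 to 0.65. In inflammatory monocytes Mfge8 ranged from -0.83 to 0.81 and Stab1 from -0.26 to 0.25. In MHC-II macrophages Axl ranged from -0.041 to 0.27 and Mfge8 from -0.33 to 0.30. In osteoclasts Gas6 ranged from -0.41 to 0.36 and Stab1 from -0.20 to 0.42.

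For the difference between macrophages and mesenchymal cells in the genotype effect, 105 values kept direction and side and 15 reversed, under alternatives chosen after seeing the data. With doublet removal at 1.6% Mfge8 was -0.25. With at least 1000 UMIs per cell Cd300lb was 0.0026. With at most 5% mitochondrial UMIs Cd300lb was 0.019. At Leiden resolution 2.0 Cd300lb was 0.11. With the clusters set aside kept Stab1 was -0.14. Leaving out each library gave Tyro3 from -0.82 to 1.01, Axl from -0.27 to 0.11, Mfge8 from -0.18 to 1.10, Timd4 from -1.11 to 0.55 and Cd300lb from -0.25 to 0.25.

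Among type differences Tyro3 between macrophages and neutrophils was -0.32 in Nlrp3-/- libraries and -1.18 to 4.45 when leaving out a library, with -0.11 without wild-type library 1, Timd4 was -0.083 to 1.94 when leaving out a library, and Axl between macrophages and conventional dendritic cells was -0.021 in Nlrp3-/- libraries. Among subset differences Pros1 between C1q Mrc1 and Arg1 Spp1 macrophages was 0.32 in Nlrp3-/- libraries, and Lrp1 between C1q Mrc1 macrophages and monocytes was -0.27 at resolution 2.0, a call (adjusted p = 0.021), and -0.078 to 0.16 when leaving out a library. Calls were lost for 7 type and 8 subset values. In Nlrp3-/- libraries these were Mfge8 against neutrophils, Lrp1 against mesenchymal cells, Gas6 and Timd4 against endothelial cells, and, for C1q Mrc1 macrophages, Mfge8 and Cd300lb against monocytes and Mfge8 against MHC-II macrophages. Leaving out a wild-type library lost Mfge8 against neutrophils (library 3), Timd4 against endothelial cells (2), Axl against conventional dendritic cells (1), Cd300lb against monocytes (2 or 3), and Mfge8 (1 or 2) and Pros1 (2) against MHC-II macrophages. The causes were not tested.

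Without a low-count filter the members called between genotypes were 1 in macrophages, 2 in endothelial cells, 4 in Arg1 Spp1, 3 in C1q Mrc1 and 3 in MHC-II macrophages and 1 in monocytes. Genes called were then 395 in macrophages, 195 in neutrophils, 561 in endothelial cells, 599 in conventional dendritic cells, 530 in Arg1 Spp1, 678 in C1q Mrc1 and 701 in MHC-II macrophages, 492 in monocytes and 750 in osteoclasts. Every gene with a molecule in the summed counts was tested in this setting. The number tested is not given, so the member and gene counts cannot be read as shares or set against the filtered fits. With DESeq2 members called were 2 in macrophages, 2 in endothelial cells and 1 in MHC-II macrophages. Genes called, of those past the low-count filter, were 613 of 12850 in macrophages, 219 of 10883 in neutrophils and 260 of 14791 in mesenchymal cells. They were 357 of 11410 in endothelial cells and 244 of 7666 in conventional dendritic cells. In subsets they were 134 of 8423 in Arg1 Spp1, 165 of 9286 in C1q Mrc1 and 216 of 9940 in MHC-II macrophages. In monocytes they were 91 of 9315, and in osteoclasts 247 of 9600. At resolution 2.0, 62 genes were called in C1q Mrc1 macrophages, and osteoclasts were not named. The difference between macrophages and mesenchymal cells gave 1 gene with doublet removal at 1.6% and 1 at resolution 2.0, alternatives chosen after seeing the data.

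The replicate numbers did not pair the libraries: in macrophages, deviations of same-numbered libraries correlated at -0.11, -0.25 and -0.16. With a replicate block no member was called, and genes called were 35 in macrophages, 12 in neutrophils, 4 in mesenchymal cells, 14 in Arg1 Spp1 and 30 in MHC-II macrophages and 111 in osteoclasts.

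Leaving out each library in turn, genes called between genotypes ranged from 26 to 2660 in macrophages, 15 to 112 in neutrophils, 7 to 584 in mesenchymal cells, 13 to 2182 in endothelial cells, 14 to 1189 in conventional dendritic cells, 13 to 1036 in Arg1 Spp1, 15 to 1357 in C1q Mrc1 and 26 to 1385 in MHC-II macrophages, 26 to 982 in monocytes, 23 to 1841 in osteoclasts and 0 to 1 for the difference between types. Members called ranged from 0 to 3, 0 to 0, 0 to 0, 0 to 2, 0 to 1, 0 to 7, 0 to 4, 0 to 3, 0 to 2, 0 to 3 and 0 to 0 in the same order. Between macrophages and other types, genes called ranged from 8358 to 9250 for neutrophils, 8817 to 10253 for mesenchymal cells, 6988 to 8549 for endothelial cells and 2231 to 3277 for conventional dendritic cells, and members from 7 to 8, 10 to 10, 7 to 8 and 7 to 7. Between C1q Mrc1 macrophages and other subsets, genes called ranged from 1648 to 2727 for Arg1 Spp1 and 1954 to 2792 for MHC-II macrophages, 4250 to 4902 for monocytes and 5669 to 6275 for osteoclasts, and members from 6 to 7, 4 to 6, 5 to 6 and 8 to 8.

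Few molecules of Tyro3 and Timd4 were counted in macrophages, and the part of depth in this was not tested. In types with few cells the values of all members are limited. Intervals were not computed, and UMI counts cover counting error only.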
